A study of Mus musculus with 6 samples.

Results

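Glycolysis turns glucose into pyruvate in the cytosol, and pyruvate then either becomes lactate, which leaves the cell, or crosses into the mitochondrion and is burned as acetyl-CoA. The 35 genes described here cover this route: the glucose transporters, the enzymes of the 10 steps of glycolysis with their common isozymes, the PFKFB enzymes that set the pace of phosphofructokinase, lactate dehydrogenase, the lactate transporters, the mitochondrial pyruvate carrier, and the pyruvate dehydrogenase complex with the kinases that switch it off. They were chosen by symbol, by a rule that used no measured value, though with earlier results of these data known. All 35 were found among the 55414 genes listed. A second row named *Aldoa* held 222 counts in all and was set aside, so each gene stands for 1 row. All 35 passed the filter on low counts that left 16353 genes to test. Isozymes of a step differ in kinetics and in the tissues that use them, so the balance within a step is described beside the level of each gene. Early embryos depend heavily on glycolysis, and proliferating progenitor cells are known for turning much of their glucose into lactate even when oxygen is present.

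The cells came from mouse embryos at E10.5, counted in days after mating. Both genotypes carried *Pdx1-Cre*, a transgene that acts in the pancreatic and duodenal endoderm, and the Cre-activated Tdtomato reporter, and tdTomato-positive cells were sorted from the trunk. They differed at the *mir-302* cluster, which was intact in the 3 WT libraries (labelled miR-302WT) and missing in the 3 KO libraries (labelled miR-302KO). Crosses of *mir-302*+/- parents gave the KO embryos, so the cluster was absent from every tissue of the embryo and not only from the sorted lineage. The parentage of a library, whether 1 embryo or a pool, is not stated in the sources used here, and p-values measure only the spread between these libraries.

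The libraries held 17352498 to 26634523 counts. The cluster itself is no check on the genotype, since the precursors of its microRNAs had at most 2 counts in a library and a count in 1 library only. The sorted cells carried all 12 pancreatic progenitor markers checked, summing to 1043 to 1188 CPM (counts scaled to a common library total with edgeR's TMM factors) in WT and 1144 to 1331 CPM in KO, with *Pdx1* at 73.1 to 108 CPM. These markers differed between the genotypes too. Their median log2 fold change, KO against WT, was 0.24, with 7 above 0, and DESeq2 called 3 of them higher in KO (edgeR called 0, with 4 higher at an unadjusted p under 0.05). *Gata6*, a factor of early pancreatic endoderm, was at 10.4 to 18.7 CPM in WT and 29.8 to 42.8 CPM in KO, and its relative *Gata4* had a WT mean of 215 ± 38.6 and a KO mean of 332 ± 9.93 CPM (SD of 3 libraries), both without overlap. *Hes1*, a Notch effector, was at 7.68 to 11.8 CPM in WT and 11.3 to 26.6 CPM in KO. The part of these differences in the members' values was not tested. The cells were not pure. Hemoglobin and other erythroid transcripts summed to 16283 CPM in WT replicate 3, 6582 CPM in KO replicate 1 and 345 CPM in KO replicate 3, against 1.08 to 3.80 CPM in the others. The 8 mesenchyme markers summed to 652, 272 and 1211 CPM in the WT libraries, in the order of their replicate numbers, and to 1119, 128 and 1129 CPM in the KO libraries. In KO replicate 2 *Col1a1*, *Col3a1*, *Twist1* and *Prrx1* were at 0, though *Twist1* reached at most 0.52 CPM in any library. The other mesenchyme markers were present there, *Col1a2* at 34.9, *Pdgfra* at 0.91, *Pdgfrb* at 11.3 and *Vim* at 81.1 CPM. Liver markers ran from 668 to 2072 CPM, endocrine markers from 1005 to 5441 CPM and neural markers from 43.9 to 99.1 CPM, all without a split by genotype. Y-linked transcripts summed to 196 to 238 CPM in WT replicate 1 and KO replicates 2 and 3 and to at most 0.26 CPM in the others, so sex did not follow genotype. In bulk samples such as these, fewer cells of a type and less RNA per cell cannot be told apart.

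A microRNA lowers transcripts whose 3′ untranslated region pairs with its seed, bases 2 to 8 of the mature strand. The mature strands below, from RefSeq on GRCm38.p6, show the seed of the deleted family in capitals, and they are shown because the sites in member transcripts are read against them. They lie at chr3:127545275-127545297 and chr3:127545665-127545687 on the plus strand.
mmu-miR-302b-3p: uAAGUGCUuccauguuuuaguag
mmu-miR-302d-3p: uAAGUGCUuccauguuugagugu

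A site was counted where the annotated 3′UTR held AGCACTT (a 7mer-m8), GCACTTA (a 7mer-A1) or both together as AGCACTTA (an 8mer). By this rule 9 of the 35 members (25.7%) held a site: *Hk1*, *Pfkp*, *Aldoc*, *Ldha*, *Slc16a1*, *Mpc1*, *Mpc2*, *Pdk1* and *Pdk4*. Among the 13763 tested genes with a 3′UTR the share was 20.6%. The stretches around 4 of these sites are printed with the matched bases in capitals: those of *Pfkp* and *Pdk1*, whose KO libraries all lay above their WT libraries, of *Ldha*, the most abundant member with a site, and of *Mpc1*, which holds the list's only 8mer. They start at base 80 of 1692 in the *Pfkp* 3′UTR, at base 1766 of 3734 in *Pdk1*, at base 18 of 486 in *Ldha* and at base 336 of 499 in *Mpc1*, counted from the stop codon to the first matched base.
Pfkp: agttatttatcAGCACTTtatggaagcaag
Pdk1: ttcagtgtattGCACTTActagctttcaat
Ldha: ccccgtgtcctAGCACTTcactgtccaggc
Mpc1: ttataactacaAGCACTTAagtactcaaaa

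Of the 9 members with a site, 7 had a log2 fold change above 0, and their median was 0.11 beside 0.17 for the 26 members without one. A letter match is a description of the sequence, and binding was not measured here.

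The levels of the members covered a wide range. Per kilobase of transcript, the scale on which the levels of genes are ranked here, *Gapdh* stood highest in WT at 2728 ± 30.5 CPM per kb (SD, n = 3), then *Eno1* at 1987 ± 133, *Ldha* at 1779 ± 94.4 and *Pkm* at 1223 ± 12.8. *Tpi1* at 662 ± 15.4, *Aldoa* at 602 ± 17.3 and *Pgam1* at 514 ± 50 CPM per kb came next, and the WT libraries of these 7 genes did not overlap between neighbours in this order. The gatekeepers stood far lower: the 2 hexokinases summed to 14.9 ± 0.71 CPM per kb, the 2 pyruvate carrier genes to 29.4 ± 1.93, and the 4 PFKFB genes to 25.1 ± 2.24. At the bottom were *Eno2* and *Pdk4* at 0.53 ± 0.16 and 0.47 ± 0.28 CPM per kb, within their spread of each other. The members together took 2.12, 2.14 and 2.09% of the TMM-scaled totals in WT, always listed here from replicate 1 to 3. In the KO libraries they took 2.40, 2.22 and 2.63%. Each KO library thus gave the route a larger share than any WT library, with a mean of 2.42% ± 0.21 against 2.12% ± 0.023 (SD, n = 3).

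**Figure D1:**
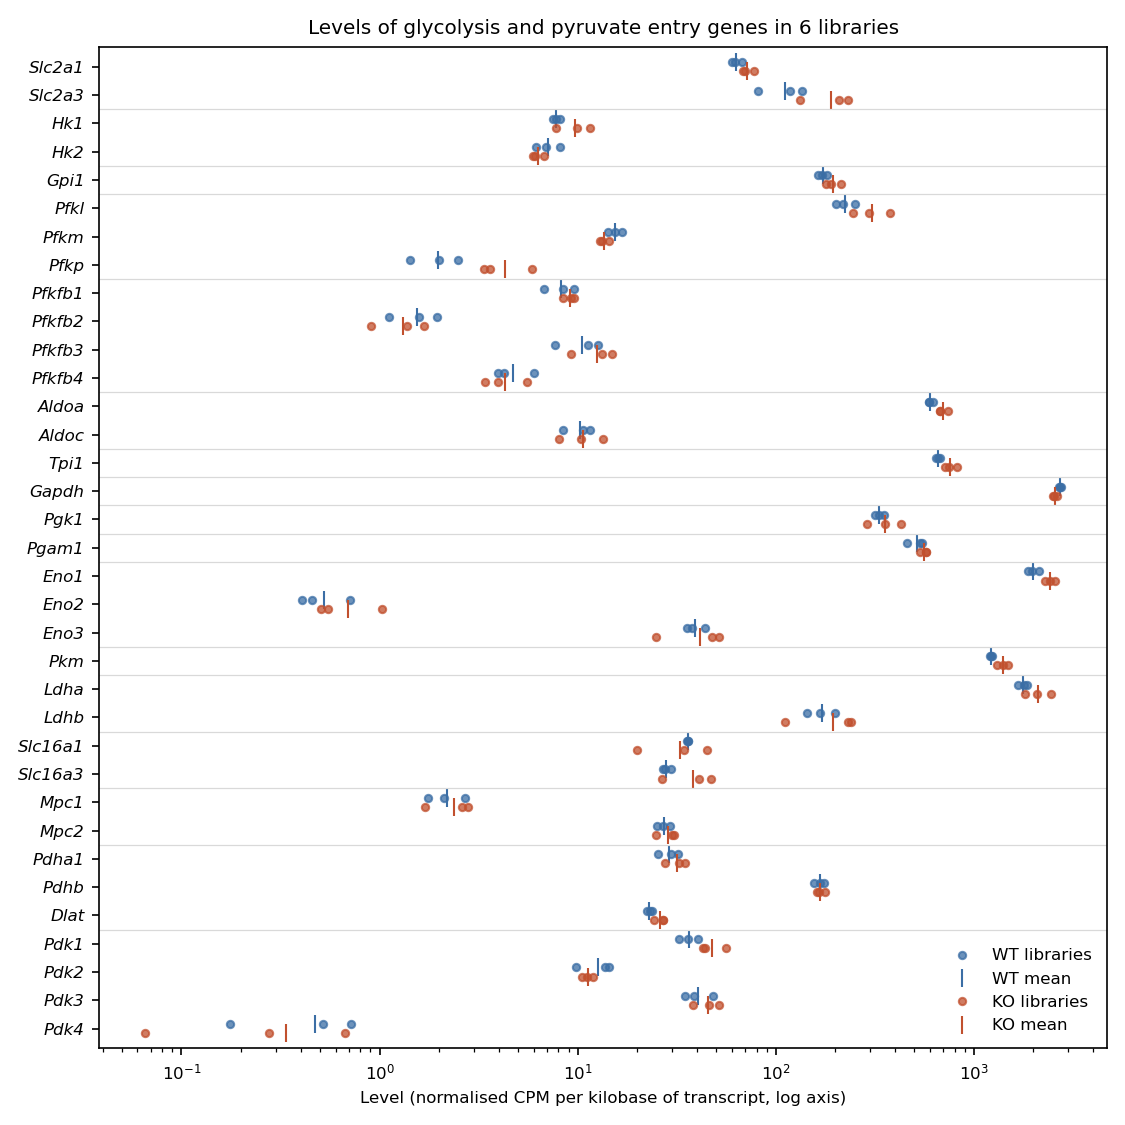
Level of each of the 35 members in the 3 WT (blue) and 3 KO (red) libraries, as normalised CPM per kilobase of transcript on a log axis, with a bar at each genotype's mean and genes grouped by step. Levels run from under 1 CPM per kb for *Eno2* and *Pdk4* to 2728 for the WT mean of *Gapdh*, and the genotypes lie close together for most genes.

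KO was compared with WT to ask what the loss of *mir-302* did to the route. Most members leaned upward in KO, by small amounts. Of the 35, 27 (77.1%) had a log2 fold change above 0, against 45.6% of all genes tested, and their median was 0.16 (interquartile range 0.032 to 0.25) against -0.025 (-0.19 to 0.15) for all genes. In 8 members (22.9%) every KO library lay above every WT library, against 8.36% of all genes: *Slc2a1*, *Pfkp*, *Aldoa*, *Tpi1*, *Eno1*, *Pkm*, *Dlat* and *Pdk1*. In 1 member (2.86%), *Gapdh*, every KO library lay below every WT library, against 7.99% of all genes. No member passed an adjusted p of 0.05 in edgeR's quasi-likelihood test, which called 0 of the 16353 genes (0%), and the members' adjusted p ran from 0.195 to 0.987. At an unadjusted p under 0.05, edgeR gave 10 members higher in KO (28.6%, against 6.42% of all genes) and 0 lower (against 3.97%). The 10 became 2 without WT replicate 1, 7 without WT replicate 2 and 7 without WT replicate 3. They became 6 without KO replicate 3 and 5 without WT replicate 3 and KO replicate 1 together. In either direction, 1700 of all 16353 genes passed this p with all libraries. Without WT replicate 1, 2 or 3, these were 1381 of 16732, 1650 of 17000 and 1319 of 16681 genes. Such numbers are not given here for the settings that leave out a KO library. DESeq2's Wald test, run on the same counts, called 3 members higher at an adjusted p under 0.05 (8.57%, against 4.22% of the 14353 genes it gave an adjusted p) and 0 lower (against 0.648%). Those 3 were *Slc2a3*, *Pfkp* and *Eno1*.

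Most differences were small. In 25 members the log2 fold change lay within 0.25 of 0 and 2 exceeded 0.5. The difference was larger than its standard error in 20 members and more than 2 times as large in 12, and the standard errors ran from 0.058 to 0.80 with a median of 0.15. The 17 members with a mean over 100 CPM had a median of 0.20, 15 of them above 0, and the 18 others had a median of 0.098, 12 of them above 0. All genes over 100 CPM had a median of -0.013, with 46.6% above 0. KO replicate 3 held the highest value of the 6 libraries in 21 of the 35 members, against 17.1% of all genes, and KO replicate 2 the lowest of the KO libraries in 20, against 35.4% of all genes. The median deviation of the members from their means over libraries was -0.11, -0.041 and -0.069 (log2) in the WT libraries and 0.10, -0.0065 and 0.22 in the KO libraries. KO replicate 2 therefore stood between the genotypes. Without it, the members' median was 0.25, 28 were above 0 and 19 had both remaining KO libraries above all WT ones (13.5% of all genes did). Without KO replicate 3, the median was 0.14, 25 were above 0 and 9 lay above (12.8% of all genes). With the 2 erythroid-rich libraries left out, WT replicate 3 and KO replicate 1, the median was 0.20, 25 were above 0 and 13 lay above (15.5% of all genes).

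**Figure D2:**
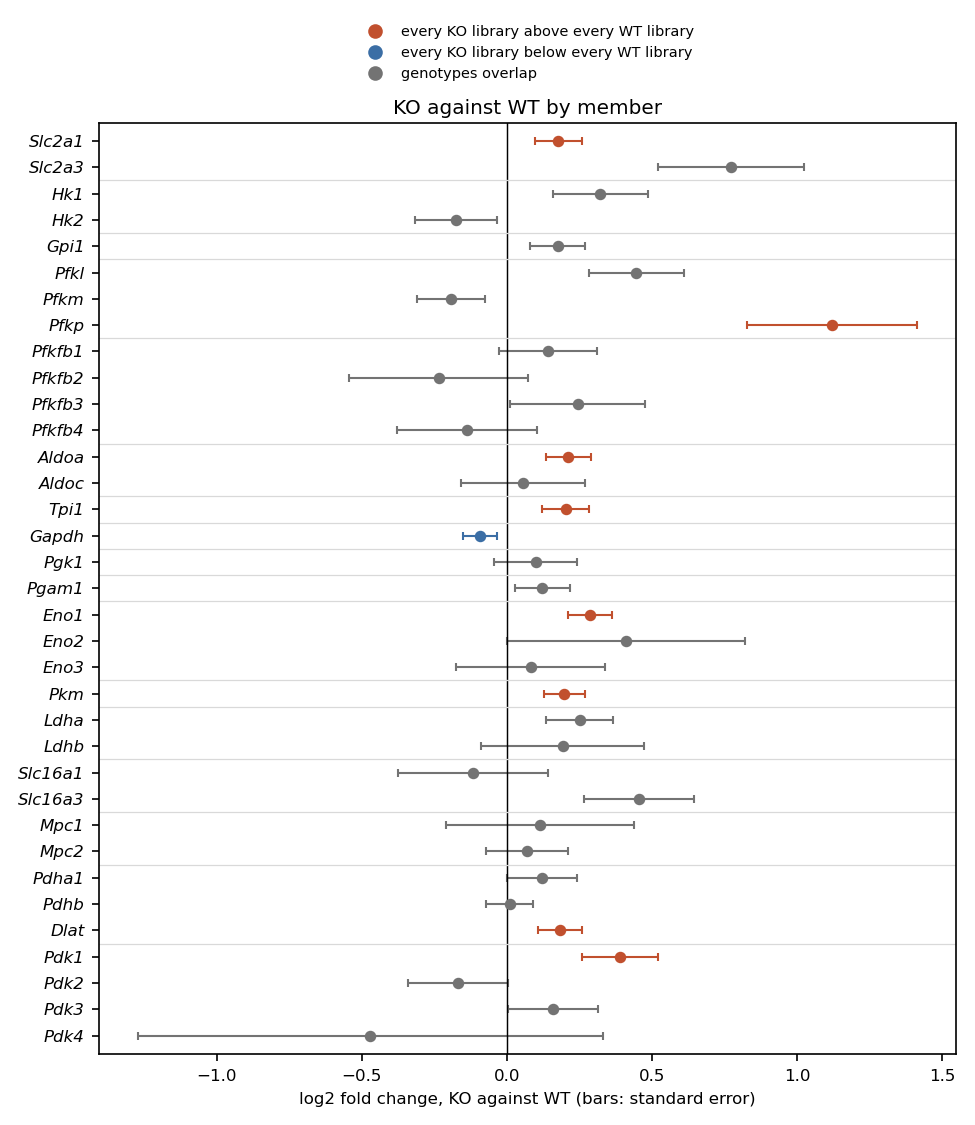
Fitted log2 fold change of each member, KO against WT, from edgeR with bars of 1 standard error, with members coloured red where every KO library lay above every WT library and blue where every one lay below. The 8 red members sit between 0.18 and 1.12, *Gapdh* alone is blue at -0.09, and the widest bar belongs to *Pdk4*.

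**Figure D3:**
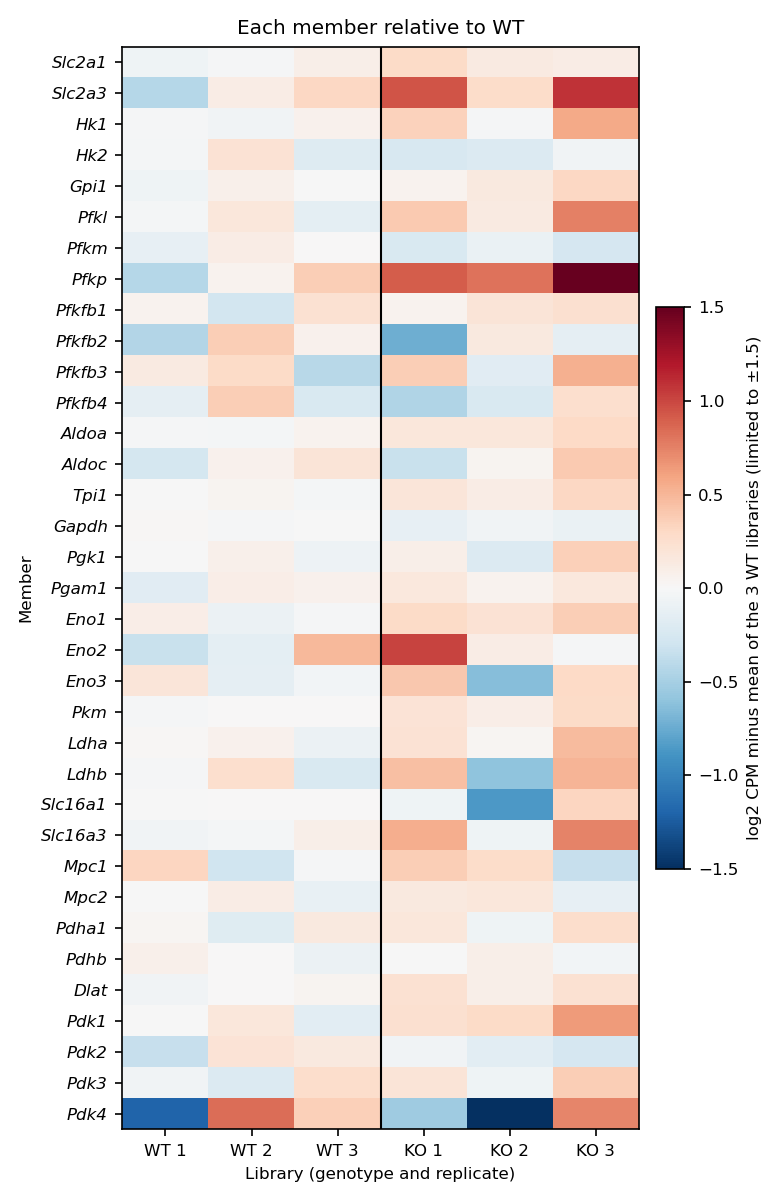
Each member (rows, in the order of the route) in each of the 6 libraries (columns), as the log2 of its normalised CPM less the mean log2 CPM of the 3 WT libraries, with the colours limited to 1.5 on either side of 0. Warm colours fill most of the KO replicate 3 column and much of KO replicate 1. KO replicate 2 holds blue cells, among them those of *Pdk4*, *Slc16a1*, *Ldhb* and *Eno3*.

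Glucose enters through facilitative transporters, and *Slc2a3* (ENSMUSG00000003153), the high-affinity transporter GLUT3, held the larger part of their signal per length. It was at 321, 468 and 537 CPM in WT and at 828, 524 and 913 CPM in KO. KO replicates 1 and 3 stood well above every WT library, and KO replicate 2 stood within the WT range. The log2 fold change was 0.77 ± 0.25 (SE), a 1.71-fold difference, with an edgeR adjusted p of 0.305 and a DESeq2 adjusted p of 0.0193. *Slc2a1*, the widespread basal transporter GLUT1, was at 197, 203 and 219 CPM in WT and at 252, 227 and 222 CPM in KO. Its genotypes did not overlap but almost touched, between WT replicate 3 and KO replicate 3, and its log2 fold change was 0.18 ± 0.082 (edgeR adjusted p = 0.527). The share of *Slc2a3* in the pair was 63.2% ± 5.19 per length in WT and 71.9% ± 5.92 in KO.

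Hexokinase traps glucose in the cell as glucose-6-phosphate. *Hk1*, the ubiquitous form, was at 33.1, 32.2 and 34.9 CPM in WT and at 42.5, 33.1 and 49.5 CPM in KO, so that KO replicate 2 fell among the WT libraries (log2 fold change 0.32 ± 0.16, edgeR adjusted p = 0.574). *Hk2*, the inducible form, had a mean of 39.1 ± 5.53 CPM in WT and 34.6 ± 2.42 CPM in KO, and the genotypes overlapped. *Gpi1*, which turns glucose-6-phosphate into fructose-6-phosphate, was at 474, 525 and 493 CPM in WT and at 517, 550 and 616 CPM in KO, with 1 WT library above the lowest KO one.

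Phosphofructokinase makes the committed step of glycolysis, and its 3 subunit genes moved unequally. *Pfkp* (ENSMUSG00000021196), the platelet-type subunit, gave the largest difference of the 35 members. It was at 5.94, 8.27 and 10.3 CPM in WT and at 14.9, 14 and 24.5 CPM in KO, every KO library above every WT one. The log2 fold change was 1.12 ± 0.29, a 2.17-fold difference, with an edgeR adjusted p of 0.195 and a DESeq2 adjusted p of 0.00548, and leaving out any 1 library kept it between 0.86 and 1.36. *Pfkp* was a minor part of the step, with its lowest library at 126 counts. Per length it made up 0.82% ± 0.27 of the phosphofructokinase signal in WT and 1.31% ± 0.17 in KO. *Pfkl*, the liver-type subunit that made up 92.7% ± 0.82 of the step in WT, was at 818.0, 941.2 and 754.0 CPM in WT and at 1098.8, 918.9 and 1405.3 CPM in KO. KO replicate 2 lay just under WT replicate 2 and the other KO libraries lay above all WT ones (log2 fold change 0.45 ± 0.16, edgeR adjusted p = 0.382). *Pfkm*, the muscle-type subunit, was at 40.9, 48.2 and 44.7 CPM in WT and at 38.1, 41.6 and 37.3 CPM in KO, a log2 fold change of -0.19 ± 0.12. Only KO replicate 2 reached into the WT range. About 5.58% of the annotated exon bases of *Pfkp* are shared with *Pitrm1* on the opposite strand. Of those of *Pfkm*, 10.2% are shared with *Gm26513* on the same strand. The sources used here do not say whether counting used strand.

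The PFKFB enzymes make and break fructose-2,6-bisphosphate, the strongest activator of phosphofructokinase. *Pfkfb3*, whose product mostly makes it, was the highest of the 4 per length, at 41.7% ± 6.84 of their sum in WT. It was at 54.3, 60.5 and 37.0 CPM in WT and at 64.1, 44.2 and 71.4 CPM in KO, and the genotypes overlapped (log2 fold change 0.24 ± 0.23). *Pfkfb1*, *Pfkfb2* and *Pfkfb4* had log2 fold changes of 0.14 ± 0.17, -0.24 ± 0.31 and -0.14 ± 0.24, each smaller than its error.

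The middle of the pathway splits the sugar and draws energy from it. *Aldoa*, the aldolase that made up 98.3% ± 0.23 of the aldolase signal per length in WT, was at 917, 916 and 963 CPM in WT and at 1048, 1044 and 1146 CPM in KO. Its KO libraries all lay above its WT libraries, by 0.21 ± 0.077 on the log2 scale (edgeR adjusted p = 0.373). *Tpi1*, which interconverts the triose phosphates, had the same form, at 1059, 1090 and 1041 CPM in WT and at 1208, 1144 and 1316 CPM in KO (log2 fold change 0.20 ± 0.081, edgeR adjusted p = 0.439). *Gapdh*, the next enzyme and a common reference gene, went the other way. It was at 3920, 3833 and 3869 CPM in WT and at 3545, 3734 and 3613 CPM in KO, with every KO library below every WT one. The difference was -0.094 ± 0.058 (log2; edgeR adjusted p = 0.673), the smallest in size of the 9 members whose genotypes did not overlap, and it stayed between -0.098 and -0.055 when any 1 library was left out. Set as ratios to *Gapdh* within each library, an added comparison, 12 of the other 34 members (35.3%) had every KO library above every WT one, against 14.3% of the 16352 genes other than *Gapdh*.

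Lower glycolysis turns 3-carbon phosphates into pyruvate. *Pgk1*, which makes the first ATP of the pathway, was at 607, 639 and 577 CPM in WT and at 647, 526 and 780 CPM in KO, so that the KO libraries held both the lowest and the highest value. *Pgam1*, the phosphoglycerate mutase, was at 812, 977 and 951 CPM in WT and at 1015, 948 and 1018 CPM in KO, and only KO replicate 2 lay within the WT range. Both have near-identical copies that could share their reads: *Pgk1-rs7* held 18.7% as many counts as *Pgk1*, and *Pgam1-ps2* 38.6% as many as *Pgam1*. With the copies added in, the genotypes of both still overlapped. *Pgk1* lies on the X chromosome, as do *Pdha1*, *Pdk3* and *Pfkfb1*, and the part of sex in their values was not tested.

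*Eno1* (ENSMUSG00000063524), the enolase of most embryonic tissues, had a small difference with a small error. It was at 4322, 3795 and 3966 CPM in WT and at 4891, 4656 and 5192 CPM in KO, and the lowest KO library lay above the highest WT library. The log2 fold change was 0.29 ± 0.075, a 1.22-fold difference, with an edgeR adjusted p of 0.196 and a DESeq2 adjusted p of 0.0480, and leaving out any 1 library kept it between 0.26 and 0.34. Its copy *Eno1b*, with 11.5% as many counts, was at 491, 431 and 460 CPM in WT and at 567, 530 and 598 CPM in KO, so the copy had the same split and the sum of the genes too. *Eno3*, the muscle enolase, had a mean of 61.4 ± 6.91 CPM in WT and 64.9 ± 22.5 CPM in KO. *Eno2*, the neuronal enolase, was at 1.13 to 2.87 CPM in the 6 libraries, and the genotypes overlapped in both genes. Muscle markers summed to 27.7 to 80.7 CPM in WT and 17.9 to 138 CPM in KO, with KO replicate 2 the lowest and KO replicate 1 the highest, as in *Eno3*, and their part in the *Eno3* values was not tested.

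*Pkm*, the pyruvate kinase that ends glycolysis, was at 2939, 2985 and 2998 CPM in WT and at 3425, 3174 and 3627 CPM in KO. The WT libraries had a coefficient of variation of 1.05% and every KO library lay above them (log2 fold change 0.20 ± 0.071, edgeR adjusted p = 0.368). The table counts genes and not splice forms, so the embryonic and adult forms of *Pkm* were not separated.

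**Figure D4:**
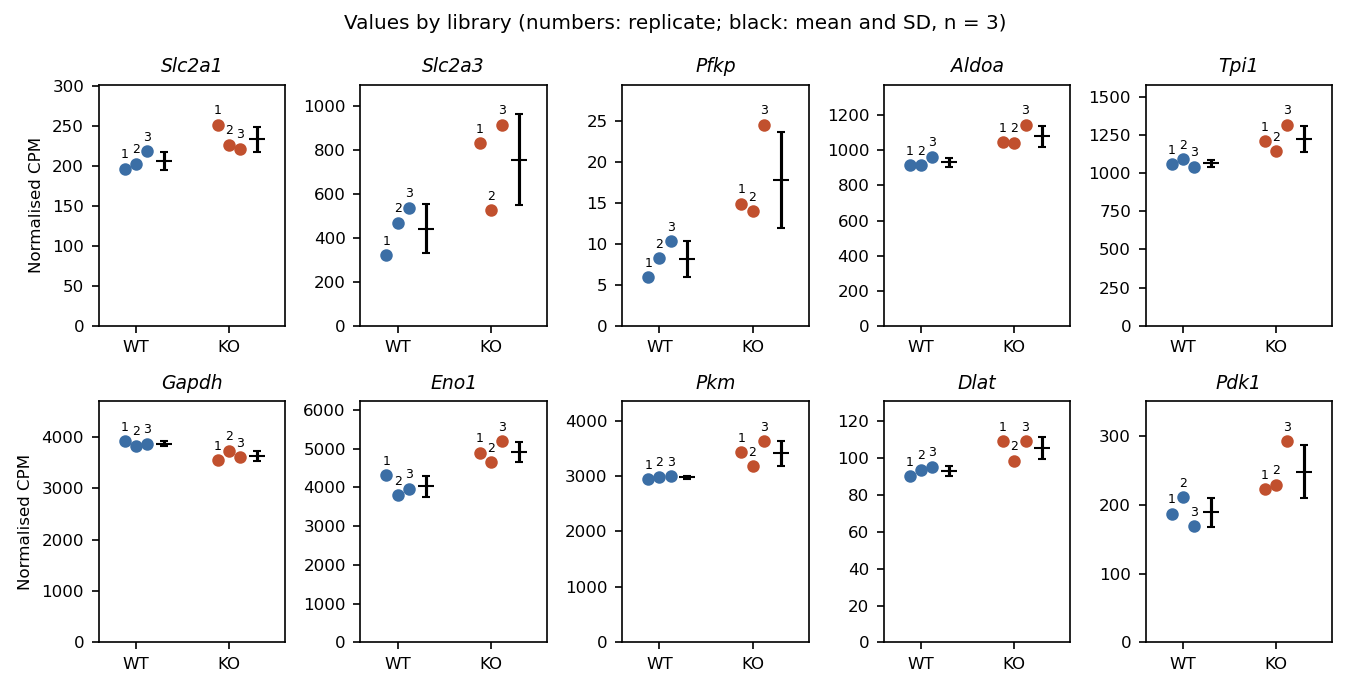
Normalised CPM of the 9 members whose genotypes did not overlap, with *Slc2a3*, in each library (points numbered by replicate, WT blue and KO red) beside the mean and SD of 3 libraries in black, with each axis starting at 0. *Pfkp* separates by the widest margin relative to its level, the abundant enzymes by narrow margins, *Gapdh* in the opposite direction, and *Slc2a3* not at all because of KO replicate 2.

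Pyruvate that stays in the cytosol becomes lactate. *Ldha*, the muscle-type subunit, was at 3268, 3377 and 3041 CPM in WT and at 3761, 3295 and 4465 CPM in KO (log2 fold change 0.25 ± 0.12, edgeR adjusted p = 0.521). KO replicate 2 lay among the WT libraries and the other KO libraries above them. *Ldhb*, the heart-type subunit, which made up 8.69% ± 0.93 of the pair per length in WT, had a mean of 222 ± 37.1 CPM in WT and of 253 ± 93.9 CPM in KO, where KO replicate 2 was the lowest of all libraries at 145 CPM. Lactate leaves through the monocarboxylate transporters. *Slc16a1* (MCT1), which carries lactate both ways, was at 158, 159 and 160 CPM in WT and at 152, 87.8 and 199 CPM in KO. The WT libraries had a coefficient of variation of 0.62% and the KO libraries one of 38.2%, so that *Slc16a1* had the steadiest WT values of all members and no common KO level. *Slc16a3* (MCT4), the exporter of strongly glycolytic cells, had a mean of 121 ± 6.41 CPM in WT and of 166 ± 44.9 CPM in KO (log2 fold change 0.45 ± 0.19, edgeR adjusted p = 0.469). KO replicate 2 was the lowest library of both transporters, though for *Slc16a3* only just, at 116 CPM beside 117 to 129 CPM in WT. It was also the lowest in mesenchyme markers, which summed to 272 to 1211 CPM across the WT libraries. The part of these markers in the transporter values was not tested.

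Pyruvate enters the mitochondrion through a carrier of paired subunits. *Mpc2* was at 27.8, 30.1 and 25.8 CPM in WT and at 30.8, 31.4 and 25.5 CPM in KO, and the genotypes overlapped. *Mpc1*, its partner, was low and had only 30 counts in its lowest library, with a mean of 2.10 ± 0.46 CPM in WT and 2.27 ± 0.56 CPM in KO. The annotated copy *Mpc1-ps* held 175% as many counts as *Mpc1*, and 23.1% of the exon bases of *Mpc1* are shared with a transcript on the other strand, so the level of *Mpc1* is uncertain. With the copy added in, the sum was 6.17, 4.75 and 5.2 CPM in WT and 7.23, 6.49 and 6.48 CPM in KO, and the genotypes of the sum did not overlap, whereas those of *Mpc1* alone did.

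The pyruvate dehydrogenase complex commits pyruvate to acetyl-CoA. *Pdhb*, a subunit of its first enzyme, was at 266, 253 and 236 CPM in WT and at 250, 268 and 244 CPM in KO, with a log2 fold change of 0.009 ± 0.08, the nearest to 0 of all members. *Pdha1*, the partner subunit, had a log2 fold change of 0.12 ± 0.12. *Dlat*, the transacetylase core, was at 89.9, 93.6 and 95.3 CPM in WT and at 109, 98.5 and 109 CPM in KO, every KO library above every WT one (log2 fold change 0.18 ± 0.076, edgeR adjusted p = 0.457).

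The PDK kinases switch the complex off. *Pdk1* (ENSMUSG00000006494), the form best known as a target of hypoxia-inducible factor, was at 187, 211 and 169 CPM in WT and at 222, 229 and 292 CPM in KO. Its genotypes did not overlap, and its log2 fold change was 0.39 ± 0.13, a 1.31-fold difference (edgeR adjusted p = 0.328, DESeq2 adjusted p = 0.0987). *Pdk3*, the highest kinase per length in WT, was at 82.0, 73.9 and 102 CPM in WT and at 97.1, 81.2 and 110 CPM in KO, and *Pdk3* and *Pdk1* did not differ per length beyond their spread. *Pdk2* had a mean of 28.4 ± 5.53 CPM in WT and 25.2 ± 1.73 CPM in KO. *Pdk4* ran from 0.23 to 2.51 CPM, with 4 counts in its lowest library, and had a difference smaller than its error (log2 fold change -0.47 ± 0.80). Transcripts that hold a very GC-rich stretch (75% GC or more over 200 bases) had a median log2 fold change of 0.15 over all genes, against -0.041 for the rest, and 3 members hold such a stretch: *Eno2*, *Pdk1* and *Pdk3*. The 32 members without such a stretch had a median of 0.13, with 24 above 0, and the 3 members that DESeq2 called are among them. The 8 marker and pathway genes outside the members that DESeq2 called all hold one, at 77 to 80.5% GC. They are *Gata4*, *Gata6*, *Hes1*, *Vegfa*, *Mxi1*, *Pgp*, *H6pd* and *Lipt2*. So does *Egln1*, at 89.5%, whereas *Car9*, *Pklr*, *Dlst* and *Ldhd*, described below, do not. The part of GC content in the values of *Pdk1* and of these genes was not tested.

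Balance within a step was set as the log2 ratio of the normalised CPM of 2 genes in the same library. This ratio does not depend on the scaling between libraries. It is not corrected for length, so each ratio was compared between genotypes and not with 0. Of 15 pairs, which included *Pdha1* with *Pdk1* from neighbouring steps, 3 had genotypes that did not overlap. The ratio of *Pfkm* to *Pfkp* was 2.78, 2.54 and 2.12 in WT and 1.35, 1.57 and 0.61 in KO, a difference of -1.31. The ratio of *Pfkl* to *Pfkm* was 4.32, 4.29 and 4.08 in WT and 4.85, 4.46 and 5.24 in KO, a difference of 0.62. The balance thus lay away from the muscle-type subunit in every KO library, toward each of the other subunits. The ratio of *Slc16a1* to *Slc16a3* was 0.44, 0.42 and 0.32 in WT and -0.23, -0.41 and -0.031 in KO, a difference of -0.61. Per length, *Slc16a1* made up 56.2% ± 1.13 of the pair in WT and 45.7% ± 3.23 in KO. KO replicate 2 had the lowest ratio, with *Slc16a1* low, at 87.8 CPM, and *Slc16a3* just under the WT libraries, at 116 CPM. Each of the 3 pairs had a two-sided exact permutation p of 0.1, the smallest these libraries allow, and 0.375 after adjustment over the 15 pairs. The pairs that overlapped included *Slc2a1* with *Slc2a3* (difference -0.59), *Hk1* with *Hk2* (0.47) and *Ldha* with *Ldhb* (0.12).

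**Figure D5:**
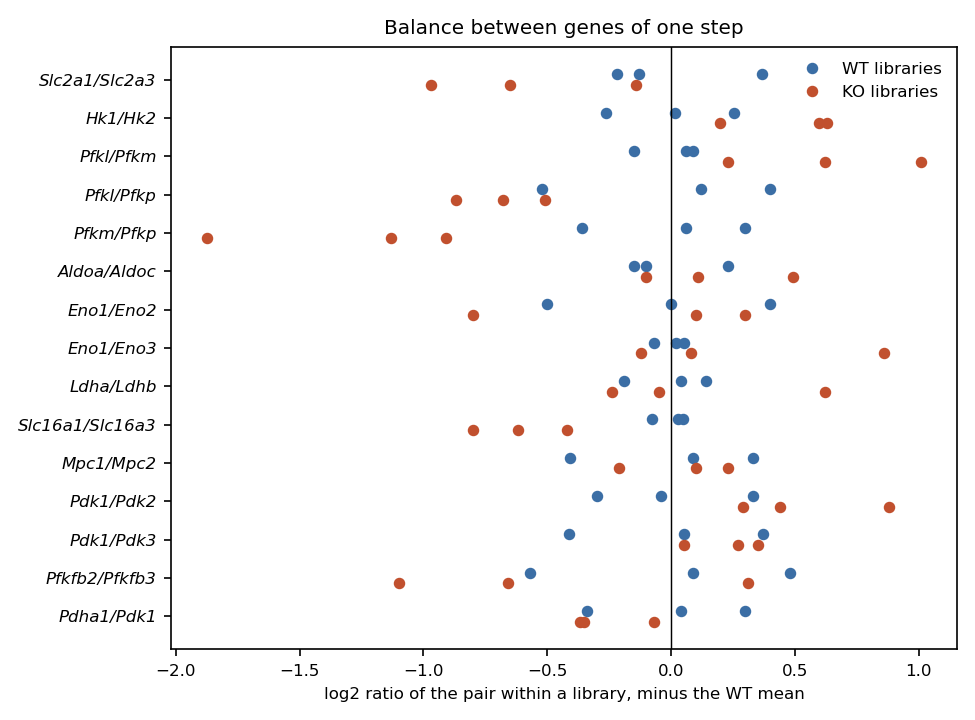
Log2 ratio of 2 genes of the same or the next step within a library, less the mean ratio of the WT libraries, for 15 pairs (rows) in 3 WT (blue) and 3 KO (red) libraries. The KO points lie apart from the WT points for *Pfkl*/Pfkm, *Pfkm*/Pfkp and *Slc16a1*/Slc16a3 and overlap them for the other pairs.

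Many glycolytic promoters hold the core of the hypoxia response element, ACGTG or GCGTG, which hypoxia-inducible factor binds, and ACGTG is also part of the *Myc* element CACGTG. RefSeq gave a promoter, the 250 bases before to 50 bases after a start, for 34 members. Read on both strands, 18 of them (52.9%) held ACGTG, against 21.8% of all 27025 genes, and 30 (88.2%) held ACGTG or GCGTG, against 46.7%. At least 2 matches were found in 21 members (61.8%), against 22.9% of genes. The 27025 genes were not limited to those tested, and a gene with several promoters was counted by its highest value. The member promoters were also richer in GC, with a median of 64.7% against 53.3%. The part of base content, expression and number of promoters in these shares was not tested. The 150 bases before the start are shown on the coding strand for *Ldha*, shown for its 5 matches there, and for *Pfkp*, the member with the largest difference, which has 3. Capitals mark the matches, 1 CACGTG counting on both strands. On GRCm38.p6 they are chr7:46845654-46845803 (plus strand) and chr13:6648772-6648921 (minus strand).
Ldha: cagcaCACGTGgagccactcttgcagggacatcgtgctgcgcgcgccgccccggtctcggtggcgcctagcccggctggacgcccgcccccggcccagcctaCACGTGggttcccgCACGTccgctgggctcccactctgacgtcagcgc
Pfkp: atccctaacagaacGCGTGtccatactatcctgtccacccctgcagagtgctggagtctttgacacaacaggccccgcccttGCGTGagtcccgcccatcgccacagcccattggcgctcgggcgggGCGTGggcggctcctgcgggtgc

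The genes that surround the route were read from the same fit. The 14 regulators of the hypoxia and *Myc* families had a median log2 fold change of -0.033 with 6 above 0. Of their best-known members, *Hif1a*, the oxygen-sensitive factor, was at 187 to 197 CPM in WT and 145 to 192 CPM in KO, and *Myc* at 79.2 to 128 and 90.5 to 144 CPM. *Egln1*, the prolyl hydroxylase that marks *Hif1a* for breakdown, was the gene of this list whose genotypes did not overlap, at 7.91 to 11.7 CPM in WT and 12.6 to 14.7 CPM in KO (edgeR adjusted p = 0.475). At an unadjusted p under 0.05 edgeR gave 2 regulators higher, *Egln1* and *Mycn*, and 0 lower, against 6.42% and 3.97% of all genes. DESeq2 called 0 of the regulators. *Mycn* was at 55.8, 55.9 and 65.0 CPM in WT and 85.7, 60.6 and 102 CPM in KO, with overlap (log2 fold change 0.49 ± 0.19, edgeR adjusted p = 0.4). Hypoxia targets outside glycolysis had a median of 0.081, with 11 of 16 above 0, and 3 lay wholly above WT and 1 below. At an unadjusted p under 0.05 edgeR gave 4 of them higher and 1 lower, and DESeq2 called 2 higher and 0 lower. *Vegfa*, the vascular growth factor, was at 96.3, 118 and 89.0 CPM in WT and 142, 126 and 137 CPM in KO (DESeq2 adjusted p = 0.0490, edgeR adjusted p = 0.22). *Mxi1*, an antagonist of *Myc*, was at 7.21, 8.88 and 8.40 CPM in WT and 20.6, 17.7 and 9.74 CPM in KO (DESeq2 adjusted p = 0.0235, edgeR adjusted p = 0.24). *Car9*, a carbonic anhydrase and a standard hypoxia marker, lay below, at 8.83 to 15.1 CPM in WT against 6.78 to 7.92 CPM in KO.

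Other pathways of glucose had medians near the -0.025 of all genes, though slightly higher. In each of their lists the share above 0 was larger than the 45.6% of all genes. The 29 tested among 36 other isozymes and regulators of glycolysis had a median log2 fold change of 0.0083, with 16 above 0, and the 18 tricarboxylic acid cycle genes one of 0.022, with 12 above 0. The 8 pentose phosphate genes had a median of 0.055 and the 8 tested remaining genes of the pyruvate dehydrogenase system 0.027, each with 5 above 0. No gene of these lists passed in edgeR at an adjusted p of 0.05. At an unadjusted p under 0.05, edgeR gave 1 higher and 1 lower among the glycolysis genes, 1 higher in each of the pentose phosphate and dehydrogenase lists, and 0 in the cycle. DESeq2 called 1 gene in each of 3 of them, all higher in KO. *Pgp*, a phosphatase that removes side products of glycolysis, was at 43.5, 46.0 and 35.8 CPM in WT and 70.7, 62.7 and 61.1 CPM in KO (DESeq2 adjusted p = 0.000766). *H6pd*, the pentose phosphate dehydrogenase of the endoplasmic reticulum, was at 12.6, 17.2 and 9.61 CPM in WT and 25.3, 23.4 and 34.3 CPM in KO (DESeq2 adjusted p = 0.000933). *Lipt2*, which starts the lipoylation that *Dlat* needs, was at 10.8, 13.5 and 9.22 CPM in WT and 23.3, 26.2 and 21.7 CPM in KO (DESeq2 adjusted p = 1.09e-05). The edgeR adjusted p of the 3 ran from 0.132 to 0.16. *Pklr*, the pyruvate kinase of liver and red cells, lay wholly above WT, at 2.03 to 2.91 against 3.32 to 4.85 CPM, with an edgeR adjusted p of 0.526. *Dlst*, of the cycle, and *Ldhd*, a lactate dehydrogenase of the mitochondrion, lay wholly below WT, *Dlst* at 173 to 209 against 150 to 170 CPM and *Ldhd* at 1.70 to 2.91 against 0.78 to 1.36 CPM.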

How the data were processed

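Messenger RNA of sorted *Pdx1-Cre* lineage cells at E10.5 was read in 6 libraries, 3 WT and 3 KO, made with SMART-seq v4 and Nextera XT and sequenced as pairs of 150 bp. Groups and replicate numbers were taken from the deposited labels. After dropping poor-quality sequence, the authors mapped the reads with STAR (genome GRCm39) and tallied them per gene with GenomicAlignments. What they deposited are these raw counts. Versions, the gene annotation, the use of strand and the handling of reads shared between copies are not given in the sources used here. A symbol was found for 94.0% of the identifiers.

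KO was compared with WT by the quasi-likelihood test of edgeR 4.0.16 under R 4.3.3 (default glmQLFit and glmQLFTest after filterByExpr and TMM scaling, no covariate), with Benjamini-Hochberg adjustment over 16353 genes. The F statistic gave the standard error of each fold change. DESeq2 1.42.0 was run with its defaults as an alternative, on genes with at least 1 count. Same-genotype libraries differed by more than counting noise (chi-square per degree of freedom 25.3 to 41.0), so none was a copy of another. Counts limit the precision of low genes.

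Transcript lengths, GC content, exon overlaps and 3′UTRs came from GENCODE M21, a GRCm38 annotation, and microRNA and promoter sequences from RefSeq on GRCm38.p6. List levels are medians of log2(CPM + 0.5) deviations. The members, the lists and the tests were chosen with earlier results of these data known. Values by library are given for members called by either tool, members whose genotypes did not overlap and the highest member of each step per length. Genes outside the members were eligible to be named where called or not overlapping, at most 3 per list. *Hif1a*, *Myc* and *Pdx1* were named for their role, *Mycn* for its unadjusted p, and the mesenchyme markers to describe KO replicate 2. The comparison with *Gapdh*, the sums with copies and the counts with libraries left out were added after the data were seen.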

Additional observations from a re-analysis of the deposited data

How the results depend on the processing

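The direction of the members' median held under all 13 alternatives to the edgeR fit, whose medians for normalization, filter, spread estimate and tool ran from 0.159 to 0.178 (log2), beside 0.159 as reported. Leaving out 1 library gave medians from 0.132 to 0.246, and 0.246 was the value without KO replicate 2. The number of members called was 0 under all of them but DESeq2, which called 3 (*Slc2a3*, with a log2 fold change of 0.79, *Pfkp*, with 1.14, and *Eno1*, with 0.31), 699 genes in all and 8 genes of the lists beside the members. Without a filter on low counts, edgeR called 264 genes and 3 list genes. Leaving out 1 library gave 0 to 217 genes and 0 to 2 list genes called, with 217 and 2 without WT replicate 2. The cause was not tested. Over the fits with 1 library left out, the direction turned in 8 members, each with a reported value smaller than its error: *Aldoc* (-0.109 to 0.229, below 0 also without WT replicate 1, at -0.0645), *Pfkfb4* (-0.321 to 0.0852, above 0 also without KO replicate 1, at 0.0164), *Pdhb* (-0.0141 to 0.0726, below 0 also without WT replicate 3, at -0.0015), *Eno3* (-0.0995 to 0.36), *Mpc1* (-0.0092 to 0.337), *Slc16a1* (-0.367 to 0.159), *Pdk4* (-1.36 to 0.0119) and *Pgk1* (-0.0155 to 0.246). WT replicate 2 decided this for *Pfkfb4*, KO replicate 1 for *Eno3* and *Mpc1*, KO replicate 2 for *Pdhb*, *Slc16a1* and *Pdk4*, and KO replicate 3 for *Aldoc* and *Pgk1*. Without both erythroid-rich libraries, *Pfkfb2* was at 0.0122, *Eno3* at -0.103, *Ldhb* at -0.0351 and *Mpc1* at -0.0205. Of the 15 pairs of genes, 3 to 7 did not overlap with 1 library left out and 9 with both erythroid-rich libraries left out. Fewer libraries make it easier not to overlap.

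The same replicate number did not mark related libraries, since the correlations of same-numbered WT and KO libraries after removal of the group means were -0.211, 0.251 and 0.0779. With the replicate number as a block, edgeR called 0 genes and 0 members, and the members' median was 0.153. The members' median standard error was 0.154, close to their median difference. The lowest library of *Pdk4* held 4 counts, that of *Eno2* 23 and that of *Mpc1* 30.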
